A study of Mus musculus with 24 samples.

Results

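Cytochrome P450 families 1 to 3, without the Cyp2b genes, were 53 of the 41388 genes counted in liver, chosen by their symbols alone (a family number from 1 to 3, a subfamily letter and a gene number). Liver RNA was sequenced from WT mice, which were littermates homozygous for floxed Lpin1 without Cre, and from Adn-Lpin1-/- mice, in which the adiponectin promoter drove Cre so that lipin 1, a phosphatidic acid phosphatase, was targeted in adipocytes. All were male mice on the C57BL/6J background, 8 weeks old when they were placed on a low-fat diet (LFD, 10% of kcal from fat) or a high-fat diet (HFD, 60%), and all were fasted for 4 hours before their livers were taken. The sample labels give 16 weeks of diet, whereas the study's methods give 5 weeks. Each of the 4 groups (WT LFD, Adn-Lpin1-/- LFD, WT HFD and Adn-Lpin1-/- HFD) had 5 single mice, with total counts, in units of 1e6, of 36.3 to 46 for WT LFD, 51.1 to 61.4 for Adn-Lpin1-/- LFD, 54 to 62.2 for WT HFD and 57.6 to 81.1 for Adn-Lpin1-/- HFD. In liver, Lpin1 itself ranged from 120 to 1195 CPM (counts per 1e6 of the scaled library) over the 20 mice and was not called between genotypes on either diet, and because the deletion was aimed at adipocytes it did not check the labels. The hepatocyte gene Alb, which encodes albumin, stood at 67484 to 80047 CPM in 3 group means and at 63251 CPM in Adn-Lpin1-/- HFD.

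These enzymes are heme proteins of the endoplasmic reticulum that insert oxygen into drugs, foreign compounds, steroids, bile acids and fatty acids, with electrons passed on by P450 oxidoreductase (Por) and cytochrome b5. Family 1 is induced through the aryl hydrocarbon receptor, whereas many family 2 and family 3 genes are induced through the nuclear receptors CAR (Nr1i3) and PXR (Nr1i2). In liver many of them are most abundant in pericentral hepatocytes, and several differ between male and female mice through the pattern of growth hormone release. Most lie in clusters of near copies, which bears on how their reads are counted.

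The bases just before the start of 7 members are shown. The Cyp2c and Cyp2a genes among them set relatives with like and with different values by genotype side by side, and Cyp1a2 is shown without a relative. Cyp2c68 fell in Adn-Lpin1-/- livers on both diets, and Cyp2c37, Cyp2c50 and Cyp1a2 fell on the LFD. Cyp2c38 had positive values on both diets that were not called. Cyp2a22 rose on the HFD, where its closest relative, Cyp2a12, had a value of 0.12 (log2) that was not called. Each run is the 100 bases before the RefSeq start on GRCm38.p6, 5′ to 3′ on the strand of the gene, and capitals mark CAAAG, the core of elements bound by the liver factor HNF4A, or CTTTG, its reverse complement.
Cyp2c37 (chr19:39992324-39992423, plus strand): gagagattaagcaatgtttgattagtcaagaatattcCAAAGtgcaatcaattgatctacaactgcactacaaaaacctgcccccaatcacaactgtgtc
Cyp2c50 (chr19:40089579-40089678, plus strand): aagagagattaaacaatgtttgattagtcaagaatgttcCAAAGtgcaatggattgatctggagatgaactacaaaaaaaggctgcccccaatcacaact
Cyp2c68 (chr19:39741102-39741201, minus strand): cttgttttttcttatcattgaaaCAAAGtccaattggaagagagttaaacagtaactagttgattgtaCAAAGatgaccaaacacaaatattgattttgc
Cyp2c38 (chr19:39463076-39463175, minus strand): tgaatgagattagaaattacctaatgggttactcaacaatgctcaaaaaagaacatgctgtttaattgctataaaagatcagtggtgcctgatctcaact
Cyp2a22 (chr7:26939387-26939486, minus strand): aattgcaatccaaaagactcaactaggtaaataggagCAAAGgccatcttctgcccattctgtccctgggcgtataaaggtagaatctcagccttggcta
Cyp2a12 (chr7:27028990-27029089, plus strand): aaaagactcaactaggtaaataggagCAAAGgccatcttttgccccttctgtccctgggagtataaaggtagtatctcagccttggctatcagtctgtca
Cyp1a2 (chr9:57683656-57683755, minus strand): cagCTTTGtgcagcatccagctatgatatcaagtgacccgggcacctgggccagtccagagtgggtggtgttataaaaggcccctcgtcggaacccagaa
CAAAG on either strand was present in this window in 24 of the 45 members with a RefSeq entry and in 21.6% of 32851 promoters of all genes. It was found in 7 of the 9 members with an entry that were called lower by genotype on either diet, and in 15 of the 25 other tested members with an entry. GCGTG, the core of the element of the aryl hydrocarbon receptor, does not overlap CAAAG, and on either strand it was present in 5 of the 45 members, Cyp1a1 among them and Cyp1a2 not, and in 15.6% of all promoters. The windows of Cyp2c37 and Cyp2c50 were 81% identical. That of Cyp2c37 was 45.9% identical to the window of Cyp2c68 and 53.6% to that of Cyp2c38. These letters are a description of the windows, and whether any factor binds there was not measured.

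**Figure D1:**
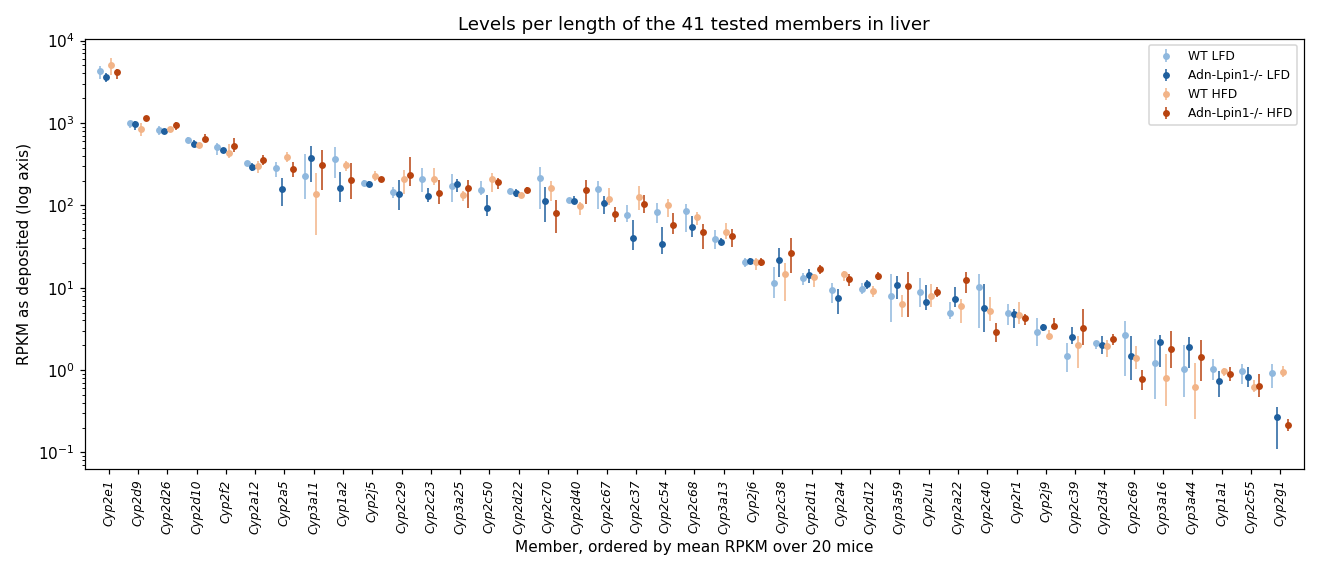
Deposited RPKM (log axis) of the 41 tested members, ordered by the mean over 20 mice, with points for the means of 5 mice in each group and bars from the lowest to the highest mouse. Cyp2e1, with a mean of 4288 RPKM over the 20 mice, stands above all others, and the 4 groups of Cyp2g1 at the right end separate by genotype.

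The members made up 1.94% ± 0.164 (SD, n = 5) of the WT LFD counts, 1.67% ± 0.125 of the Adn-Lpin1-/- LFD counts, 2.05% ± 0.196 of the WT HFD counts and 1.96% ± 0.0623 of the Adn-Lpin1-/- HFD counts. By level per length (RPKM, the deposited reads per kilobase of exon, scaled to depth), the order was Cyp2e1 at 4288 RPKM, Cyp2d9 at 997, Cyp2d26 at 851, Cyp2d10 at 590, Cyp2f2 at 482, Cyp2a12 at 321, Cyp2a5 at 276, Cyp3a11 at 262, Cyp1a2 at 259 and Cyp2j5 at 201, each a mean over 20 mice. Cyp2e1, which oxidizes ethanol and acetaminophen, alone held 40.1% ± 2.4 (SD, n = 5) of the members' counts in WT LFD and 38.8% ± 3.23 in Adn-Lpin1-/- HFD. Cyp2a5, Cyp3a11 and Cyp1a2 had nearly equal means, with ranges over the mice that overlapped. At the other end, 12 members did not reach 1 CPM in at least 4 mice and were not tested: Cyp1b1, Cyp2c65, Cyp2c66, Cyp2j7, Cyp2j8, Cyp2j11, Cyp2j12, Cyp2j13, Cyp2s1, Cyp2t4, Cyp2w1 and Cyp3a57. The plot of levels shows that the 41 tested members spanned from 4288 to 0.588 RPKM.

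On the LFD, 10 of the 41 tested members were lower and 0 were higher in Adn-Lpin1-/- than in WT livers by edgeR's quasi-likelihood test at an adjusted p of 0.05 or less, the rule for every call here. Over all 13052 genes tested, 8.11% were called lower and 6.27% higher. The lower members were Cyp1a2, Cyp2a5, Cyp2g1 and 7 of the 13 tested Cyp2c genes, namely Cyp2c23, Cyp2c37, Cyp2c50, Cyp2c54, Cyp2c67, Cyp2c68 and Cyp2c70. The median log2 fold change was -0.20 over the members and 0.01 over all genes, with 30 members below 0. The split was 1 higher and 16 lower with voom on the single mice, and 5 higher and 20 lower with voom and the pools added. With edgeR's default filter, or with no limit on low counts, the split was 1 higher and 10 lower. The added member was Cyp1b1, which did not reach the limit used here and had 2 to 107 counts per mouse. In 5 members all Adn-Lpin1-/- values were below the WT values without overlap, as in 6.21% of all genes, and in 0 members all were above, as in 3.89% of all genes.

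On the HFD, 9 members were lower and 4 were higher in Adn-Lpin1-/- livers, where 8.78% of all genes were called lower and 9.87% higher. Cyp2a5, Cyp2c23, Cyp2c54, Cyp2c67, Cyp2c68, Cyp2c70 and Cyp2g1 were lower again, and Cyp2e1 and Cyp2j5 were lower on the HFD as well. Cyp2a22, Cyp2d9, Cyp2d12 and Cyp2d40 were higher. The median was 0.05 over the members and 0.00 over all genes, and 20 members lay below 0. Without Cyp2g1, which passed the limit of 1 CPM through the WT libraries alone, 9 of 40 members were called lower for LFD mice and 8 of 40 for HFD mice, and 4 and 7 were lower without overlap. The HFD groups did not overlap in 8 members that were lower and 3 that were higher, against 5.6% and 5.78% of all genes. With the trend of fold changes with GC content removed, the split was 7 higher and 7 lower, as Cyp2c38, Cyp3a11, Cyp3a16 and Cyp3a44 were added as higher and Cyp2c68, Cyp2d9 and Cyp2j5 were no longer called.

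**Figure D2:**
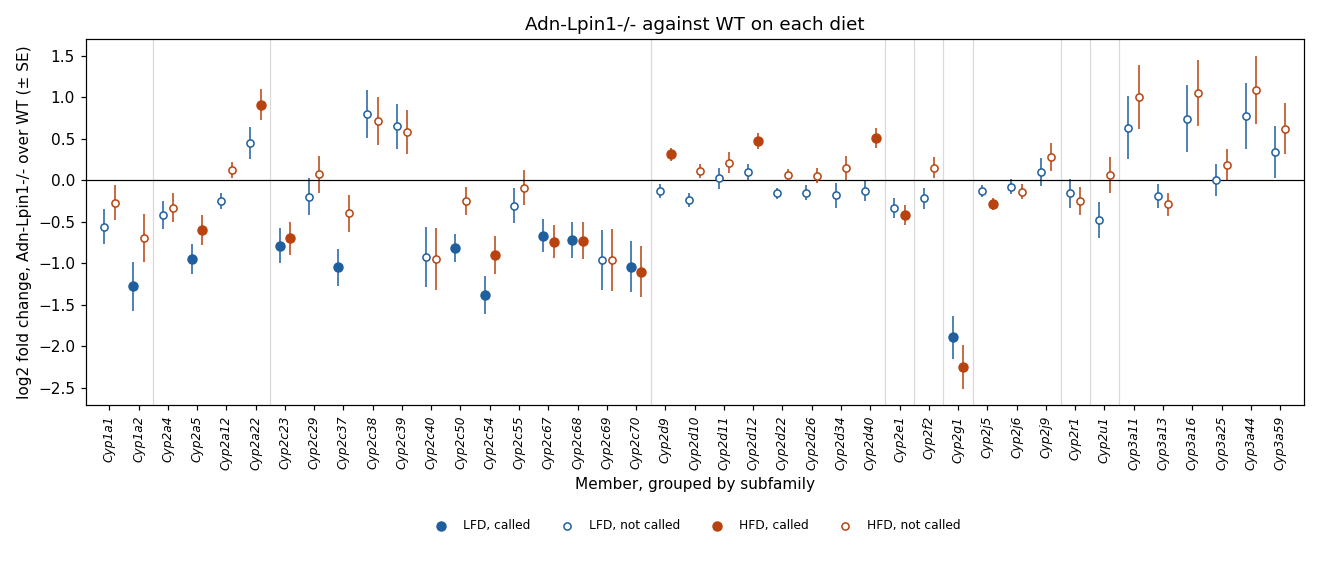
The log2 fold change of Adn-Lpin1-/- over WT livers (points, with bars for ± SE) for the 41 tested members grouped by subfamily, on the LFD and the HFD, with filled points for called members. Cyp2g1 lies farthest below 0 on both diets (-1.89 and -2.25), most Cyp2c genes lie below 0, and the Cyp2d genes lie between -0.24 and 0.51.

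Cyp2g1, known as a steroid hydroxylase of the olfactory mucosa, had the lowest level of the tested members. It measured 1.54, 1.15, 2.08, 1.98 and 2.29 CPM in WT mice on the LFD, 0.663, 0.598, 0.526, 0.461 and 0.197 in Adn-Lpin1-/- mice on the LFD, 1.77, 1.53, 1.99, 1.6 and 2.19 in WT mice on the HFD, and 0.432, 0.313, 0.328, 0.466 and 0.372 in Adn-Lpin1-/- mice on the HFD. Both Adn-Lpin1-/- groups lay below 1 CPM in every mouse and both WT groups above it, so the groups did not overlap on either diet. The log2 fold change was -1.89 ± 0.26 (SE) on the LFD and -2.25 ± 0.26 on the HFD. It is given as a description, because the gene was tested only through its level in WT mice. Its counts ranged from 12 to 128 per mouse.

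The Cyp2c genes metabolize arachidonic acid, steroids and drugs, and lie together on chromosome 19, with Cyp2c55 at the left end from 39007019 and Cyp2c70 at the right end to 40187333 (GRCm38), and Cyp2c23 farther away from 44005022 to 44029247. Of the 13 tested, 11 had a log2 fold change below 0 on the LFD and 10 on the HFD, with medians of -0.79 and -0.70. Of those called, Cyp2c54 had the largest change on the LFD. It measured 161, 111, 205, 161 and 127 CPM in WT mice on the LFD, 96.2, 45.2, 53, 47.4 and 52.8 in Adn-Lpin1-/- mice on the LFD, 217, 196, 215, 162 and 137 in WT mice on the HFD, and 72.4, 78.6, 79.6, 145 and 119 in Adn-Lpin1-/- mice on the HFD. On the LFD all 5 Adn-Lpin1-/- mice were below all WT mice, with mouse 1 highest, whereas on the HFD Adn-Lpin1-/- mouse 4 lay inside the WT range. The log2 fold change was -1.38 ± 0.23 (SE) on the LFD and -0.90 ± 0.23 on the HFD (adjusted p = 0.000601 and 0.0103).

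Cyp2c70 makes muricholic acids, the bile acids typical of mice, and shares no stretch of 50 bases with the transcripts of other genes. It measured 413, 601, 575, 492 and 186 CPM in WT mice on the LFD, 327, 179, 270, 207 and 120 in Adn-Lpin1-/- mice on the LFD, 302, 402, 320, 230 and 399 in WT mice on the HFD, and 84.7, 95.1, 186, 194 and 213 in Adn-Lpin1-/- mice on the HFD. The HFD groups did not overlap. On the LFD WT mouse 5, at 186 CPM, lay among the Adn-Lpin1-/- mice. The log2 fold change was -1.04 ± 0.31 (SE) on the LFD and -1.10 ± 0.31 on the HFD (adjusted p = 0.0307 and 0.0202). The LFD call was lost with the replicate block (-1.03, adjusted p = 0.0593) and with the GC trend removed (-0.90, adjusted p = 0.0555). Cyp2c23, an arachidonic acid epoxygenase that also shares no such stretch, was lower by log2 values of -0.79 ± 0.21 and -0.70 ± 0.20 (adjusted p = 0.014 and 0.0232).

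The neighbors Cyp2c67 and Cyp2c68 changed by -0.67 ± 0.20 and -0.72 ± 0.22 (SE, log2; adjusted p = 0.0266 and 0.0327) on the LFD, and by -0.74 ± 0.20 and -0.73 ± 0.22 on the HFD (adjusted p = 0.0137 and 0.0264). Their coding sequences were 97.1% identical, and 52.8% and 43.3% of their stretches of 50 bases also occurred in other genes. Only reads that align to a single place were counted. Cyp2c40 and Cyp2c69 had log2 values of -0.93 and -0.96 on the LFD and -0.95 and -0.96 on the HFD, and neither was called, with SEs of 0.36 or 0.37. Their coding sequences were 92.4% identical, and 72.1% and 54.8% of their stretches of 50 bases also occurred in other genes. On the HFD all Adn-Lpin1-/- values of both genes lay below the WT values, as in 5.6% of all genes. The exact permutation p of 0.00794 (two-sided) is the smallest that 5 against 5 mice can give. Both were called lower on the LFD by voom, and on the HFD with only the 2 groups fitted. In contrast, Cyp2c38 and Cyp2c39, next to each other in the cluster, had values of 0.80 and 0.65 on the LFD and 0.71 and 0.58 on the HFD and were not called (adjusted p from 0.0673 to 0.135). Cyp2c38 was called higher on the LFD by DESeq2, by voom, with only the 2 groups fitted and with the GC trend removed. Cyp2c29, the most abundant Cyp2c gene per length at 181 RPKM, was not called by genotype, at -0.20 ± 0.22 and 0.07 ± 0.22. Leaving out any of WT LFD mice 2, 3 and 4 or Adn-Lpin1-/- LFD mice 2, 4 and 5 ended the LFD calls of Cyp2c67, Cyp2c68 and Cyp2c70, with adjusted p between 0.0536 and 0.0895. On the HFD, the call of Cyp2c70 was lost without Adn-Lpin1-/- mouse 1 or 2 (adjusted p up to 0.0597), that of Cyp2c68 without WT mouse 5 or Adn-Lpin1-/- mouse 1 or 2 (up to 0.0747), and that of Cyp2c23 without WT mouse 5 or Adn-Lpin1-/- mouse 1, 2 or 3 (up to 0.0696).

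Cyp2c37 and Cyp2c50, whose coding sequences were 96.1% identical, were lower by genotype on the LFD and were the members that rose most with diet in Adn-Lpin1-/- livers. Cyp2c37 measured 164, 118, 197, 146 and 120 CPM in WT mice on the LFD, 121, 51.2, 58.4, 62.3 and 65.9 in Adn-Lpin1-/- mice on the LFD, 269, 316, 256, 198 and 172 in WT mice on the HFD, and 134, 160, 179, 245 and 199 in Adn-Lpin1-/- mice on the HFD. On the LFD 4 of the 5 Adn-Lpin1-/- mice lay at or below 65.9 CPM and mouse 1, at 121 CPM, reached the lower end of the WT mice. Cyp2c50 measured 498, 408, 614, 434 and 421 CPM in WT mice on the LFD, 389, 224, 234, 216 and 282 in Adn-Lpin1-/- mice on the LFD, 690, 703, 742, 567 and 450 in WT mice on the HFD, and 426, 477, 533, 620 and 587 in Adn-Lpin1-/- mice on the HFD. Here the LFD groups did not overlap and the HFD groups did. The genotype effect on the LFD was -1.05 ± 0.22 (SE, log2; adjusted p = 0.00393) for Cyp2c37 and -0.82 ± 0.17 (adjusted p = 0.00303) for Cyp2c50. On the HFD it was -0.40 ± 0.22 and -0.25 ± 0.17, and neither was called (adjusted p = 0.21 and 0.302). The genotype effects on the HFD and the LFD differed by 0.65 ± 0.31 and 0.57 ± 0.24, which was not called (adjusted p = 0.692 and 0.66), so the effects were not shown to differ between the diets.

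Cyp1a2, which oxidizes caffeine, aromatic amines and estradiol, lies on chromosome 9 from 57676937 to 57683655 (GRCm38). It measured 681, 995, 837, 716 and 426 CPM in WT mice on the LFD, 476, 204, 370, 209 and 246 in Adn-Lpin1-/- mice on the LFD, 575, 620, 669, 511 and 627 in WT mice on the HFD, and 223, 264, 213, 560 and 581 in Adn-Lpin1-/- mice on the HFD. On the LFD WT mouse 5, at 426 CPM, was below Adn-Lpin1-/- mouse 1, at 476 CPM, and otherwise the groups were apart. On the HFD Adn-Lpin1-/- mice 4 and 5 lay in the WT range, and mice 1, 2 and 3 were between 213 and 264 CPM. The log2 fold change was -1.28 ± 0.30 (SE) on the LFD, with an adjusted p of 0.00714, and -0.70 ± 0.29 on the HFD, which was not called (adjusted p = 0.0986) but was by voom and without Adn-Lpin1-/- mouse 4 or 5. Cyp1a1, its neighbor and the member most strongly induced through the aryl hydrocarbon receptor, stood at 2.41 CPM over the 20 mice and was not called by genotype (-0.56 and -0.27), though voom called it lower on the LFD, as did the test without Adn-Lpin1-/- LFD mouse 1.

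Of the 4 Cyp2a genes, Cyp2a5 was lower in Adn-Lpin1-/- livers on both diets and Cyp2a22 was higher on the HFD. Cyp2a5, the coumarin hydroxylase that also oxidizes nicotine, measured 604, 473, 666, 731 and 639 CPM in WT mice on the LFD, 423, 201, 297, 262 and 433 in Adn-Lpin1-/- mice on the LFD, 784, 816, 958, 837 and 734 in WT mice on the HFD, and 439, 648, 433, 578 and 619 in Adn-Lpin1-/- mice on the HFD. The genotypes did not overlap on either diet. Its log2 fold change by genotype was -0.95 ± 0.18 (SE) on the LFD and -0.60 ± 0.18 on the HFD (adjusted p = 0.00163 and 0.023), and the HFD call was lost without WT mouse 3 or Adn-Lpin1-/- mouse 1 or 3 (adjusted p up to 0.0604). Cyp2a22 measured 11.1, 9.49, 11.3, 10.3 and 15.7 CPM in WT mice on the LFD, 16.4, 14.1, 14.1, 12.9 and 21.7 in Adn-Lpin1-/- mice on the LFD, 16.7, 8.48, 14.1, 15.2 and 15.2 in WT mice on the HFD, and 32, 31.9, 27.9, 21.4 and 18 in Adn-Lpin1-/- mice on the HFD. On the HFD all Adn-Lpin1-/- mice were above all WT mice, by a log2 value of 0.91 ± 0.19 (adjusted p = 0.00356), whereas on the LFD the groups overlapped and the value of 0.45 ± 0.19 was not called (adjusted p = 0.126). Cyp2a12, 97% identical to Cyp2a22 in coding sequence and with a mean of 535 CPM against 16.9 CPM, was not called on either diet (-0.25 and 0.12), although on the LFD its Adn-Lpin1-/- values all lay below the WT values (exact permutation p = 0.00794, two-sided, the smallest that 5 against 5 mice can give). Voom on the single mice called Cyp2a12 lower on the LFD. Cyp2a4, a testosterone hydroxylase that is 98.4% identical to Cyp2a5, had a mean of 19.1 CPM and was not called by genotype (-0.42 and -0.33). It was called lower on the LFD without WT LFD mouse 2 or Adn-Lpin1-/- LFD mouse 1, and on the HFD with only the 2 groups fitted. Between 25.7% and 40.8% of the stretches of 50 bases of each Cyp2a gene recur in other genes, which limits the reads that can be placed.

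Cyp2d9, a testosterone hydroxylase that is higher in male mice, lies with its relatives on chromosome 15. The log2 values of the Cyp2d genes by genotype ran from -0.24 to 0.10 on the LFD and from 0.05 to 0.51 on the HFD. All 8 Cyp2d genes were tested, and on the HFD all 8 had a log2 value above 0, where 3 were called higher, against 9.87% of all genes. This direction depended on the processing, since 5 of the 8 were above 0 with the GC trend removed and 6 with the pools added and voom. On the LFD 6 of the 8 were below 0 and none was called, whereas Cyp2d10 and Cyp2d22 were called lower with the GC trend removed. Cyp2d9 measured 1788, 1686, 1823, 1544 and 1824 CPM in WT mice on the LFD, 1603, 1714, 1348, 1584 and 1690 in Adn-Lpin1-/- mice on the LFD, 1378, 1451, 1697, 1575 and 1219 in WT mice on the HFD, and 1841, 1819, 1896, 1779 and 1744 in Adn-Lpin1-/- mice on the HFD. On the HFD the 5 Adn-Lpin1-/- mice were above the WT mice without overlap, with a log2 value of 0.31 ± 0.08 (SE, adjusted p = 0.016), which was not called with the GC trend removed (adjusted p = 0.116). Cyp2d12 (0.47 ± 0.10, adjusted p = 0.00461) and Cyp2d40 (0.51 ± 0.12, adjusted p = 0.00712) were higher as well. Of these, Cyp2d40 had the smallest p for the difference between the diets of all members (0.64 ± 0.17, unadjusted p = 0.00112), which was not called after adjustment (0.378).

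Cyp2d26 measured 1521, 1206, 1652, 1367 and 1399 CPM in WT mice on the LFD, 1340, 1282, 1177, 1300 and 1343 in Adn-Lpin1-/- mice on the LFD, 1494, 1299, 1532, 1479 and 1353 in WT mice on the HFD, and 1389, 1473, 1613, 1673 and 1270 in Adn-Lpin1-/- mice on the HFD. Cyp2d10 measured 1139, 970, 1206, 1069 and 976 CPM in WT mice on the LFD, 1019, 952, 812, 906 and 864 in Adn-Lpin1-/- mice on the LFD, 964, 870, 913, 914 and 977 in WT mice on the HFD, and 928, 896, 1152, 1032 and 997 in Adn-Lpin1-/- mice on the HFD. Neither was called in any contrast by edgeR on the 20 mice, and the groups overlapped in each. On the LFD Cyp2d10 was called lower by DESeq2, by voom and with the GC trend removed.

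Cyp2e1 measured 8966, 6512, 9582, 8307 and 7757 CPM in WT mice on the LFD, 7055, 5851, 5681, 7436 and 6479 in Adn-Lpin1-/- mice on the LFD, 9417, 10033, 11433, 9941 and 7488 in WT mice on the HFD, and 6983, 7673, 5911, 8160 and 7457 in Adn-Lpin1-/- mice on the HFD. On the HFD the genotypes overlapped through WT mouse 5 alone. Its log2 fold change by genotype was -0.34 ± 0.12 (SE) on the LFD, which was not called (adjusted p = 0.0664) but was with DESeq2, with voom and with the GC trend removed, whereas the HFD value of -0.42 ± 0.12 was called (adjusted p = 0.0227). The HFD call was lost without WT mouse 3 or Adn-Lpin1-/- mouse 3 (adjusted p up to 0.0597). Cyp2j5, an arachidonic acid epoxygenase, measured 417, 457, 473, 448 and 496 CPM in WT mice on the LFD, 404, 387, 437, 427 and 440 in Adn-Lpin1-/- mice on the LFD, 568, 619, 560, 559 and 491 in WT mice on the HFD, and 462, 440, 484, 473 and 436 in Adn-Lpin1-/- mice on the HFD. Among HFD mice, all WT were above all Adn-Lpin1-/- mice. The log2 value by genotype on the HFD was -0.29 ± 0.07 (adjusted p = 0.00639), the smallest change among the members called lower there, and it was not called with the GC trend removed (adjusted p = 0.0524). Cyp2f2, which oxidizes naphthalene and is more abundant around the portal vein, was not called (-0.22 ± 0.13 and 0.15 ± 0.13).

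Cyp3a11, the main drug-metabolizing Cyp3a enzyme of mouse liver, varied widely between mice, from 288 to 1027 CPM in WT LFD, 445 to 1191 in Adn-Lpin1-/- LFD, 110 to 600 in WT HFD and 335 to 1023 in Adn-Lpin1-/- HFD. The genotype effect was 0.63 ± 0.38 (SE, log2) for LFD mice and 1.00 ± 0.39 for HFD mice, which was not called (adjusted p = 0.288 and 0.0739). Cyp3a16 and Cyp3a44, which are higher in female mice and stood at about 2 CPM here, had values of 0.74 and 0.77 on the LFD and 1.05 and 1.09 on the HFD, again not called. Of the 6 tested Cyp3a genes, 5 were above 0 on each diet and Cyp3a13 below. On the LFD Cyp3a25 stood at 0.00, and with the default filter of edgeR its value was counted below 0, so that 4 of 6 were above. None of the 6 was called by this test on all 20 mice. Cyp3a11, Cyp3a16 and Cyp3a44 were called higher on the HFD with the GC trend removed. The same 3 were called there without WT HFD mouse 4 or Adn-Lpin1-/- HFD mouse 5, and without the latter Cyp3a59 was called higher as well. With voom and the pools added, 3 of the 6 were called higher on the LFD and 4 on the HFD. DESeq2's Wald test called Cyp3a16 and Cyp3a44 higher on the HFD.

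**Figure D3:**
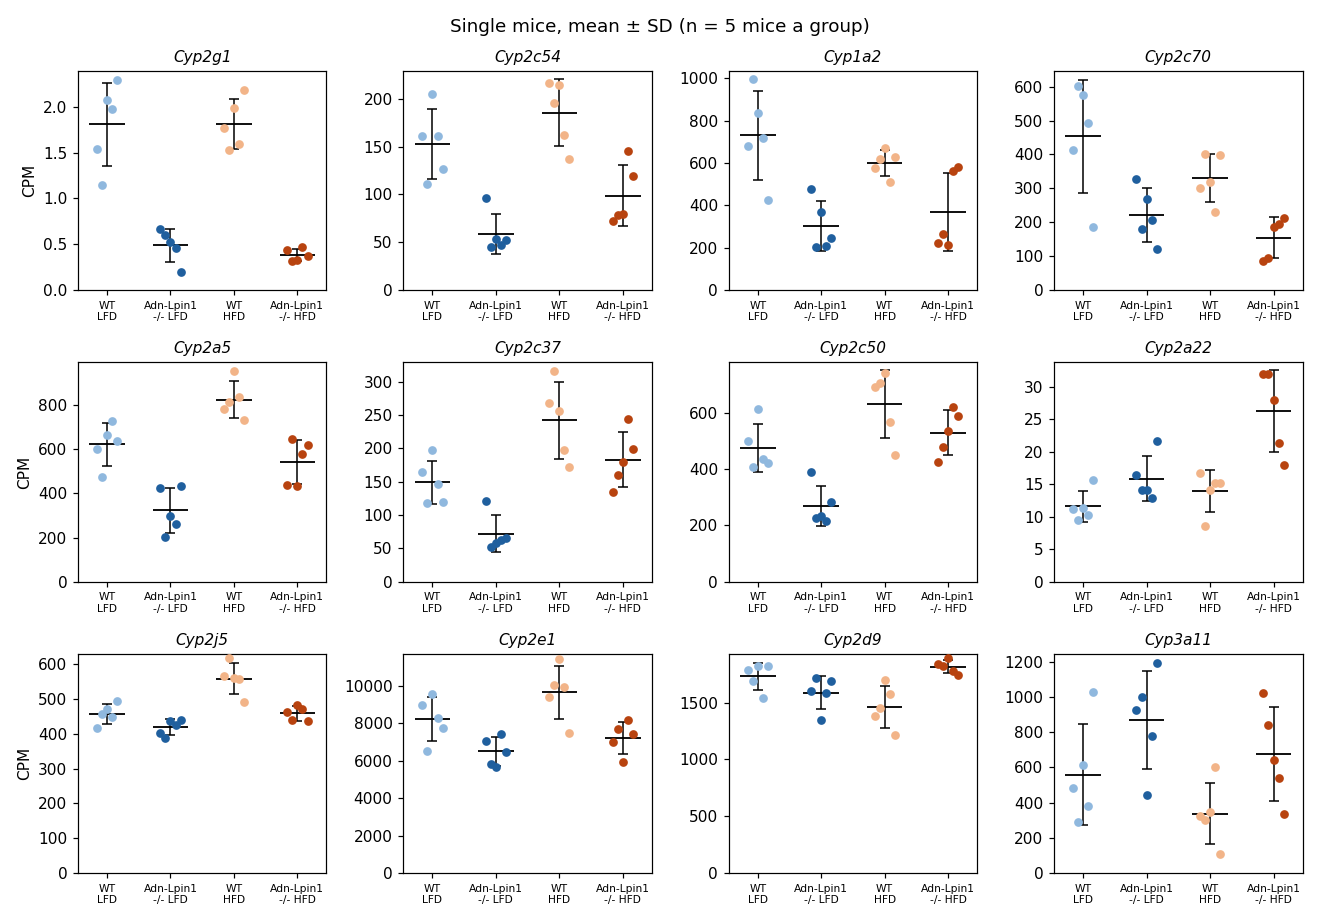
CPM (vertical axes, from 0) of 12 members in single mice, with the mean and SD of 5 mice in each of the 4 groups. Cyp2g1 and Cyp2a5 separate the genotypes on both diets, Cyp2a22 and Cyp2d9 are higher in Adn-Lpin1-/- HFD, and Cyp3a11 varies between mice within each group.

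In each of the 4 groups the mouse with the highest Cyp3a11 had the lowest Cyp2c70: mouse 5 in WT LFD (1027 and 186 CPM), mouse 5 in Adn-Lpin1-/- LFD (1191 and 120 CPM), mouse 4 in WT HFD (600 and 230 CPM) and mouse 1 in Adn-Lpin1-/- HFD (1023 and 84.7 CPM). Of the 40 other tested members, Cyp2c70 was the only one at its lowest in that mouse in all 4 groups. Cyp2c67 and Cyp2c68 were so in 3 groups, and Cyp3a44, a near copy of Cyp3a11, was at its highest in all 4. The other mice did not all follow this order, since WT LFD mouse 3 was above mouse 1 in both genes (612 against 485 CPM of Cyp3a11 and 575 against 413 CPM of Cyp2c70). This pair was chosen after its values were seen and is a description of these 20 mice.

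**Figure D4:**
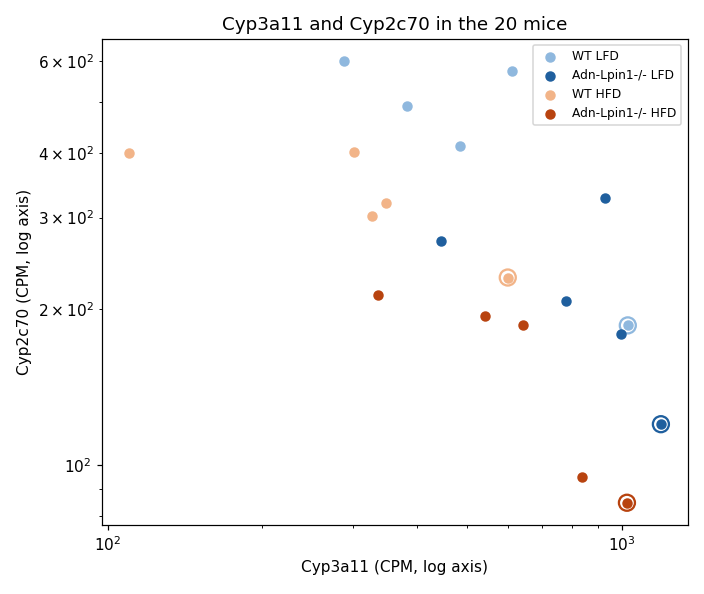
Cyp3a11 against Cyp2c70 (both in CPM, log axes) in the 20 mice, colored by group, with a ring around the mouse of highest Cyp3a11 in each group. The ringed mice are the lowest of their groups in Cyp2c70.

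Diet called few genes in WT livers, 0.429% of all genes higher and 0.674% lower on the HFD than on the LFD, and 1 of the 41 members, Cyp2j5, was among them. It was higher on the HFD by a log2 value of 0.29 ± 0.07 (SE, adjusted p = 0.0354), and the call was lost without any of WT LFD mice 1, 2, 3 and 4 or WT HFD mice 1, 2, 3 and 4 (adjusted p from 0.0599 to 0.101). In Adn-Lpin1-/- livers 5 members were higher and 0 lower on the HFD, where 1.2% of all genes were called higher and 1.26% lower. These were Cyp2c37 (1.35 ± 0.22, adjusted p = 0.00243), Cyp2c50 (0.97 ± 0.17, adjusted p = 0.00337), Cyp2a5 (0.75 ± 0.18, adjusted p = 0.0291), Cyp2a4 (0.72 ± 0.17, adjusted p = 0.0271) and Cyp2a22 (0.73 ± 0.19, adjusted p = 0.0469). Cyp2c37 and Cyp2c50 kept the call whichever mouse was left out, with adjusted p up to 0.0112 and 0.016. Without any of Adn-Lpin1-/- LFD mice 2, 3 and 4 or Adn-Lpin1-/- HFD mouse 2, neither Cyp2a4 nor Cyp2a5 was called. Cyp2a4 also lost its call without Adn-Lpin1-/- HFD mouse 1, and Cyp2a5 without Adn-Lpin1-/- HFD mouse 4 or 5 (adjusted p up to 0.0804). The Cyp2a22 call was lost when any of 15 single mice was left out (adjusted p up to 0.124). Cyp2c37, Cyp2c50 and Cyp2a5 were called here and by genotype on the LFD, and the contrasts share the Adn-Lpin1-/- LFD mice. In WT livers the values of these members were 0.70, 0.41, 0.41, 0.64 and 0.27 in the same order and were not called. DESeq2's Wald test and voom on the single mice did call Cyp2c37 and Cyp2a4 higher there. In 1 of the 41 members, Cyp2a5, all WT HFD mice lay above all WT LFD mice, as in 211 of all 13052 genes. The exact permutation p of 0.00794 (two-sided) is the smallest that 5 against 5 mice can give.

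When the genotype effect was compared between the diets in edgeR, 0 members and 0% of all genes were called. At an unadjusted p under 0.05 the count was 7 of the 41 members and 938 of all genes. DESeq2's Wald test called 0 members and 30 genes, and voom with quality weights on the single mice called 0 members and 0 genes.

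**Figure D5:**
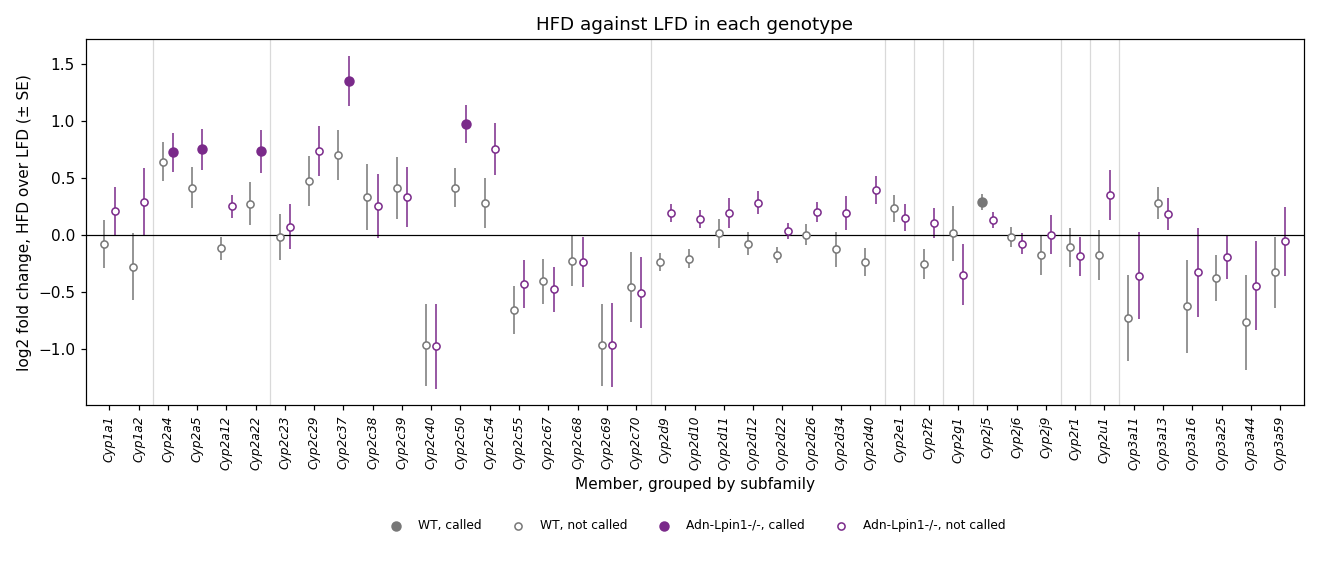
The log2 fold change of HFD over LFD (points, with bars for ± SE) for the 41 tested members grouped by subfamily, in WT and in Adn-Lpin1-/- livers, with filled points for called members. Cyp2c37 is highest in Adn-Lpin1-/- livers (1.35), and Cyp2j5 is the one filled point of WT livers.

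By known regulation the calls were as follows, where genotype lowered 8.11% of all genes among LFD mice and 8.78% among HFD mice. Of 6 tested members known to be induced through CAR or PXR, 3 were lower on the LFD and 1 on the HFD. Of 2 tested members of the aryl hydrocarbon receptor group, 1 was lower on the LFD and neither on the HFD. Of 8 pericentral members, 5 fell with genotype among LFD mice and 3 among HFD mice. By diet in Adn-Lpin1-/- livers, 3 of the 8 pericentral members and 2 of the 6 induced through CAR or PXR were higher, against 1.2% of all genes. The periportal member Cyp2f2 was not called. Of 3 members listed beforehand as higher in female mice (Cyp2a4, Cyp3a16 and Cyp3a44) none was called by genotype. The member listed as higher in male mice, Cyp2d9, was called higher on the HFD. Other members were not sorted by sex, so these counts do not cover every member that differs between male and female mice. The first list and the pericentral list share Cyp2c29, Cyp2c37, Cyp2c50, Cyp2c54 and Cyp3a11. Cyp1a2, the called member of the aryl hydrocarbon receptor group, is also a pericentral member, so its call is in both counts. Of the Cyp2b genes, which were left out by the rule, none was called by genotype, and Cyp2b9 and Cyp2b13 were higher on the HFD in Adn-Lpin1-/- livers, at 63.2 ± 50.3 against 2.05 ± 2.48 CPM and 1.69 ± 1.25 against 0.0777 ± 0.0917 CPM (SD, n = 5). Cyp2b13 passed the limit of 1 CPM through HFD mice alone, so its change is a description.

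Of the genes that serve these enzymes, Por, the electron donor, stood at 920 ± 351 CPM (SD, n = 5) in WT LFD and 895 ± 290 in Adn-Lpin1-/- LFD and was not called, and of 7 electron transfer genes 1 was called, Cyb5r3, the cytochrome b5 reductase. It was lower by genotype on the HFD (-0.30 ± 0.10 SE, adjusted p = 0.0435) and lower on the HFD than on the LFD in Adn-Lpin1-/- livers (-0.64 ± 0.10, adjusted p = 0.00191), at 698 ± 91.5 against 1091 ± 47.5 CPM (SD, n = 5). Over all genes, 8.78% were called lower in the first of these contrasts and 1.26% in the second. Of 12 genes of heme synthesis and breakdown, 1 was higher on the LFD, and 2 were higher and 1 lower on the HFD, where 6.27% of all genes were higher among LFD mice, and 9.87% higher and 8.78% lower among HFD mice. These were the biliverdin reductase Blvrb (0.28 and 0.45), Ppox (0.30) and the ferrochelatase Fech (-0.17). The receptors Ahr, Nr1i2 and Nr1i3 were not called in any contrast, with values by genotype of -0.36, 0.22 and -0.17 on the LFD and -0.43, 0.19 and 0.18 on the HFD. Of the 12 tested receptors and liver factors, 2 were lower on each diet, against 8.11% of all genes for LFD mice and 8.78% for HFD mice, the glucocorticoid receptor Nr3c1 (-0.46 ± 0.07 and -0.37 ± 0.07, adjusted p = 0.00048 and 0.0025) and Cebpa (-0.31 ± 0.08 on both, adjusted p = 0.011 and 0.00959). Of 10 genes of growth hormone signalling, 2 were lower on each diet, Ghr, the growth hormone receptor (-0.43 ± 0.07 and -0.23 ± 0.07, adjusted p = 0.000436 and 0.0239), with Igfals on the LFD (-0.68) and Igf1 on the HFD (-0.53). By diet, Stat5b, 1 of these 10, was higher on the HFD in Adn-Lpin1-/- livers (0.31 ± 0.07, adjusted p = 0.0197), against 1.2% of all genes.

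Genotype lowered 8.11% of all genes among LFD mice and 8.78% among HFD mice, which is the background for the counts that follow. Among liver genes outside the families, 3 of 8 that are higher in male mice were lower on each diet, the steroid dehydrogenase Hsd3b5 (-1.32 and -1.04), the organic anion carrier Slco1a1 (-0.58 and -0.73) and Ugt2b1 (-0.73 and -0.49). Of the 8, 4 had a value above 0 on the LFD (up to 0.61) and 2 on the HFD (up to 0.48), none of them called. By diet, 2 of the 8 were lower on the HFD in WT livers and 2 in Adn-Lpin1-/- livers, against 0.674% and 1.26% of all genes. Of the genes listed as higher in female mice, 3 reached the limit, Cux2 and the Cyp2b9 and Cyp2b13 described above, and none was called by genotype. Of 9 pericentral genes outside the families, 2 were lower on the LFD and 3 on the HFD, namely the glutamate transporter Slc1a2 (-0.61 and -0.47), Gulo (-0.50 and -0.32) and, on the HFD, Oat (-0.79). Of 10 periportal genes outside the families, 1 was called by genotype, the urea cycle enzyme Cps1, which was lower on the HFD (-0.64).

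Markers of liver cell types moved with genotype as well, where 6.27% of all genes were higher among LFD mice and 9.87% among HFD mice. The 7 tested hepatocyte markers summed to 109784, 107897, 110489, 112332 and 117570 CPM in WT LFD, 102625, 95154, 99798, 100613 and 77401 in Adn-Lpin1-/- LFD, 118398, 98369, 110852, 117961 and 126372 in WT HFD, and 82912, 85619, 82427, 106188 and 83129 in Adn-Lpin1-/- HFD. They were lower in the Adn-Lpin1-/- mice, without overlap on the LFD, with Alb the most abundant and none at 0. Of the 7, 2 were called lower on the LFD and 5 on the HFD, against 8.11% and 8.78% of all genes. Among them were Apob (-0.49 and -0.58), Serpina1a (-0.49 and -0.42), Apoa1 (-0.77 on the HFD) and Alb (-0.34 on the HFD). The 11 stellate cell markers, with Dcn the most abundant and none at 0 in a group, summed to 198, 197, 107, 206 and 187 CPM in WT LFD, 218, 500, 295, 249 and 411 in Adn-Lpin1-/- LFD, 198, 247, 247, 270 and 190 in WT HFD, and 520, 428, 311, 225 and 226 in Adn-Lpin1-/- HFD. Of the 10 tested, 6 were higher on the LFD and 5 on the HFD, led by the collagen gene Col1a1 (2.85 and 2.27). Of 10 Kupffer cell and macrophage markers 1 was higher on the LFD and 6 on the HFD, counting on both diets Gpnmb, which like the uncalled Trem2 passed the limit of 1 CPM through Adn-Lpin1-/- mice alone, with group sums of 174 ± 43.6, 203 ± 57.5, 166 ± 16.8 and 270 ± 91.2 CPM (SD, n = 5) in WT LFD, Adn-Lpin1-/- LFD, WT HFD and Adn-Lpin1-/- HFD and Clec4f the most abundant. Of 6 sinusoidal endothelial markers 2 and 4 were higher, Pecam1 and Lyve1 on both diets, with group sums from 102 to 150 CPM and Stab2 the most abundant. The part of these cell types in the P450 values was not tested, and in whole liver fewer cells of a type and less RNA per cell cannot be told apart.

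Of other cell types, 1 adipocyte marker of 4, Cfd, reached the limit and was higher in Adn-Lpin1-/- livers on both diets (3.76 and 3.81), with 146, 183, 68.5, 6.89 and 3.9 CPM in the Adn-Lpin1-/- HFD mice. The defining adipocyte marker Adipoq was at most 0.154 CPM in Adn-Lpin1-/- mice, its highest value was 4.32 CPM in WT LFD mouse 1, and Lep and Plin1 were at 0 in most mice. No cholangiocyte marker of 5 (Spp1 the most abundant), tested lymphocyte marker (1 of 5) or tested mesothelium marker (2 of 3) was called by genotype, and none of the 4 neutrophil markers reached the limit. Of 7 kidney, gut and pancreas markers only Cela1 reached it and was lower on the LFD (-0.91).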

How the data were processed

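The 24 liver libraries comprised 20 single mice, 5 in each of 4 groups, and 4 pools, each made from the RNA of a whole group. The authors selected polyadenylated RNA, aligned reads to GRCm38 with STAR 2.5.1a, counted the unambiguous reads that aligned to a single place on Ensembl genes with featureCounts 1.4.6-p5 (per the labels and the study's methods), and deposited for 41388 genes their RPKM and CPM beside the raw count. The strand setting of the counting is not given in the sources used here. CPM below are on TMM-scaled library sizes and computed from the deposited counts, and levels per length are the deposited RPKM. Total counts ranged from 36260187 to 81072794 per mouse.

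The 355 rRNA genes were left out (0.265% to 0.465% of counts). Genes had to exceed 1 CPM in 4 or more single mice, and the 13052 that did were fitted in edgeR 4.0.16 (R 4.3.3) with TMM scaling, 4 group means and the quasi-likelihood test, with Benjamini-Hochberg adjustment over all of them and calls at 0.05. Pools repeat the same mice and were left out of the tests. Mice were housed in groups and WT mice were littermates, and which mice shared a cage or litter is not given in the sources used here, so p-values measure the spread between these mice. Single members were compared by a two-sided exact permutation test of 252 arrangements, whose smallest p is 0.00794. Gene symbols matched 40254 identifiers (97.3%). Upstream bases came from RefSeq on GRCm38.p6, and shared 50-base stretches from the GENCODE transcripts of GRCm38. limma 3.58.1, DESeq2 1.42.0, Python 3.11.15 with pandas 2.3.3 and matplotlib 3.10.9 were used for the alternatives, tables and plots. Tests were run on simulated counts first.

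Named are all members called in a contrast, the 10 of highest RPKM, Por, Ahr, Nr1i2, Nr1i3, Lpin1 and up to 4 genes of lowest p per other list called by genotype. Values of all mice are given for the 3 called members of largest change per contrast and the 4 of highest RPKM. Other members named beside them as relatives were chosen after their values were seen. The members and lists were chosen with earlier results of these data known.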

Additional observations from a re-analysis of the deposited data

Results flagged for a closer look

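In 14 of 244 groups of 5 mice, 1 mouse of a named gene lay apart from the other 4 by more than 0.71 of the range (Dixon's criterion). Chance flags about 1 in 20 groups. In WT HFD mouse 5, Cyp2c67 was 296 CPM (others 183 to 212), Cyp2c23 was 594 CPM (360 to 412) and Cyp2f2 was 1213 CPM (784 to 883). In Adn-Lpin1-/- LFD mouse 1, Cyp2c37 was 121 CPM (51.2 to 65.9) and Cyp2c54 was 96.2 CPM (45.2 to 53). Cyp2a4 was 20.8 CPM in WT HFD mouse 2 (26.9 to 28.2). Of the other genes, Ahr was 15.7 CPM in Adn-Lpin1-/- HFD mouse 5 (23.2 to 25.5) and Igf1 was 625 CPM in WT HFD mouse 4 (733 to 756). WT LFD mouse 5 had 588 CPM of Gulo (691 to 706), 2416 CPM of Serpina1a (3004 to 3108) and 2.71 CPM of Cfd (0.18 to 0.774). Alb was 55514 CPM in Adn-Lpin1-/- LFD mouse 5 (68627 to 72312) and 75552 CPM in Adn-Lpin1-/- HFD mouse 4 (57304 to 62386), and Cfd was 35.9 CPM in Adn-Lpin1-/- LFD mouse 5 (1.76 to 8.35).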

How the results depend on the processing

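Across the 29 called values of members, 759 of 841 recomputed values kept the direction and the call, 82 kept the direction only and 0 reversed, and 15 of the 29 kept the call under every alternative. The count of members called by genotype on the LFD, 10, became 25 with voom, quality weights and the pools added (5 higher and 20 lower) and 17 with voom on the single mice (1 higher and 16 lower), and lay between 7 and 14 with each mouse left out. On the HFD, 13 became 24 with voom and the pools (10 higher and 14 lower), and lay between 9 and 19 with a mouse left out. For diet in WT, 1 became 3 with DESeq2's Wald test, 15 with voom and the pools, 5 with voom on the single mice, and 0 without a limit on low counts, with only the 2 groups fitted, or with the replicate block, and lay between 0 and 2 with a mouse left out. For diet in Adn-Lpin1-/-, 5 became 8 with DESeq2, 13 with voom and the pools and 2 with only the 2 groups fitted, and lay between 2 and 6 with a mouse left out. For the difference between the diets, 0 became 3 with voom and the pools. The pools repeat the RNA of the same mice, so those p-values are too small. The cause of the other changes was not tested. Mouse numbers did not pair the samples (7 of 30 same-numbered pairs correlated above 0.1, from -0.44 to 0.30, and 5 of 20 libraries correlated best with their own number). With the replicate block, 8 members were called by genotype on the LFD, 13 on the HFD and 4 by diet in Adn-Lpin1-/-. The calls lost were those of Cyp2c68 and Cyp2c70 on the LFD (adjusted p = 0.0502 and 0.0593) and of Cyp2a22 by diet in Adn-Lpin1-/- (0.0568). With GC trends removed, Cyp2c67, Cyp2c68 and Cyp2c70 were not called on the LFD (adjusted p = 0.0701, 0.0743 and 0.0555), and Cyp2c38 was called higher and Cyp2d10, Cyp2d22 and Cyp2e1 lower. The 10 members of highest level were the same 10 from counts per length. Members under 1 CPM are limited by depth, and near copies by the reads that can be placed.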

Other observations

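The pools of RNA, which entered only an alternative fit, lay inside the range of their own 5 mice for 41 of the 41 tested members for WT LFD, 39 for Adn-Lpin1-/- LFD, 37 for WT HFD and 38 for Adn-Lpin1-/- HFD. In CPM of the unscaled totals, the pools held 686, 286, 581 and 352 of Cyp1a2, 1.71, 0.678, 1.13 and 0.418 of Cyp2g1, 141, 59.3, 182 and 104 of Cyp2c54, and 540, 906, 348 and 840 of Cyp3a11, in the same order of groups. In these libraries Cyp1a2, Cyp2g1 and Cyp2c54 were lower and Cyp3a11 was higher in the Adn-Lpin1-/- pool than in the WT pool on each diet. A pool is 1 library and repeats the same mice, so these values carry no test.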
